A study of Homo sapiens with 2 samples.

Results

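The histone genes were described in the transcriptomes of A549, a line of human lung adenocarcinoma cells. Members were taken by symbol. Every listed gene whose symbol starts with HIST1H, HIST2H, HIST3H, HIST4H, H1F, H2AF or H3F3 was kept, which gave 19 of the 13137 genes with tags. The HIST symbols are the replication-dependent histone genes, of which 9 were listed. The other 10 symbols are histone variants, and 1 of them, H1FX-AS1, names an antisense RNA next to H1FX and not a histone. The 2 libraries came from A549 cells carrying a tetracycline-controlled H1 promoter that drives either a hairpin RNA against SOX2 (shRNA-SOX2) or a scrambled control hairpin (shRNA-Con), both incubated with doxycycline for 4 days. Each condition has 1 library, and the hairpin against SOX2 is a single sequence. Per the methods, the shRNA-SOX2 cells were a polyclonal population selected with puromycin after lentiviral infection, and the control cells went through the same selection.

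Messenger RNA was bound to oligo(dT), and short sequence tags were counted per gene (digital gene expression). The shRNA-SOX2-labelled library held 2093816 tags assigned to genes and shRNA-Con held 2304184, which were 60.6% and 65.5% of all clean tags. SOX2 itself, the targeted gene, had 16 shRNA-Con tags and 23 in the shRNA-SOX2-labelled library, a ratio of 1.58 (95% interval 0.80 to 3.2, adjusted p = 0.333 in Fisher's exact test). The SOX2 tag count was thus not lower in the shRNA-SOX2-labelled library, although the interval also allows a lower share. By Western blotting, the paper reports silencing of SOX2 protein in doxycycline-treated A549 cells carrying this hairpin. Tag counts do not measure protein, so they cannot check that result. Every direction below is between the libraries as labelled and rests on how the count columns were matched to them. The sample titles do not name these columns. Of the markers of A549 and of epithelium, KRT8, KRT18, AKR1B10 and ALDH1A1 had between 4581 and 14268 tags in each library. KRT19 had 35 in shRNA-Con and 127 in the shRNA-SOX2-labelled library, and CDH1 had 50 in each. EPCAM had 8 and 4, and AKR1C1 was not among the listed genes. The leukocyte marker PTPRC had 2 tags in each library, the endothelial marker PECAM1 had 3 and 0, and the fibroblast marker COL1A1 had 44 and 43. CD3E, COL1A2, DCN, VWF and CDH5 were not listed.

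Histones package DNA into nucleosomes. The core histones H2A, H2B, H3 and H4 form the particle, and linker histone H1 binds the DNA between particles. Replication-dependent genes are transcribed mainly in S phase, when new chromatin is built, and their transcripts usually end just after a short stem-loop in place of a poly(A) tail. The stem-loop is bound by SLBP, which acts in processing, export and translation of these messages. Some of these genes can also give longer or spliced transcripts that end at an ordinary poly(A) signal, mostly when cells stop dividing or differentiate. Variant histones are made throughout the cell cycle from polyadenylated messages and replace the core or linker histones at particular places in the genome. An oligo(dT) library therefore sees the polyadenylated form of a replication-dependent gene, and the form that ends at the stem-loop is largely lost from it.

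The stem-loop and the annotated transcript ends are shown for the replication-dependent members because they mark the alternative ends of these messages. Sequences are from GENCODE release 29 on GRCh38, in transcript orientation. The first group shows the stem-loop in capitals with 7 bases on each side. HIST2H2BE lies at chr1:149886181-149886210 (minus strand), HIST1H2BD at chr6:26158580-26158609 (plus), HIST1H3E at chr6:26225589-26225618 (plus), HIST1H2BC at chr6:26123465-26123494 (minus), HIST2H2BF at chr1:149811878-149811907 (minus) and the variant H2AFX at chr11:119094891-119094920 (minus).
HIST2H2BE: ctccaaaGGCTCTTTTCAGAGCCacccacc
HIST1H2BD: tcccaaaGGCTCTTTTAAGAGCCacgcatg
HIST1H3E: atccaaaGGCTCTTCTCAGAGCCaaccact
HIST1H2BC: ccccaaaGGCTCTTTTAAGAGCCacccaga
HIST2H2BF: ccccaaaGGCTCTTTTCAGAGCCacttcag
H2AFX: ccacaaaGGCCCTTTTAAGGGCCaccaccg

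The second group shows the last 30 bases of annotated transcripts that run past the stem-loop or splice around it, with the poly(A) signal in capitals. The ends lie at chr1:149884459-149884488 for HIST2H2BE, at chr6:26158612-26158641 for the unspliced and chr6:26171320-26171349 for the spliced HIST1H2BD transcript, and at chr6:26227444-26227473 for HIST1H3E. The ends of the variants H1FX (chr3:129314771-129314800, minus strand) and H2AFZ (chr4:99948088-99948117, minus) are given beside them as messages with a poly(A) signal and no stem-loop.
HIST2H2BE: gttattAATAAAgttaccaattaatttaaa
HIST1H2BD, unspliced: ttcAATAAAtgagttgtaatcatttcattc
HIST1H2BD, spliced: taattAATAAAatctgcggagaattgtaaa
HIST1H3E: agatgtaaAATAAAagattactgaacagaa
H1FX: ttgggcacAATAAAgcgtttaaacctttca
H2AFZ: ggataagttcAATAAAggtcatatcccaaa

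In HIST2H2BE the stem-loop occupied positions 450 to 465 of a 2194-base transcript, so that 1729 bases followed it before the poly(A) signal end. HIST1H2BD had an unspliced transcript of 496 bases with 39 bases after the stem-loop, and a spliced transcript of 789 bases without a stem-loop. Of the 9 replication-dependent members, 5 had a match to the stem-loop pattern, and the same number had a poly(A) signal within the last 40 bases of a transcript. The models of HIST1H1C, HIST1H2BK and HIST1H3B hold coding sequence only and end before either feature. The annotation has 71 protein-coding HIST genes, and 62 of them were not listed in the table. Of those 62, 27 had a stem-loop, 18 had a poly(A) signal and 31 had models of coding sequence only, so the absence of a feature from a model cannot be read as its absence from the message. All 9 variant genes other than the antisense RNA had a poly(A) signal in an annotated transcript of some type. For H2AFY that was a noncoding transcript, and for H2AFX a transcript annotated to nonsense-mediated decay. Their protein-coding models showed no signal within the last 40 bases. H2AFX alone among the variant genes had a stem-loop. Over all 19669 protein-coding gene names, 36 matched the stem-loop pattern (0.183%), and 32 of these were HIST genes.

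The replication-dependent genes as a group had more tags in the shRNA-SOX2-labelled library. Their summed tags were 202 in shRNA-Con and 803 in the shRNA-SOX2-labelled library, or 87.7 and 384 CPM (tags scaled to 1000000 gene tags of the library). The ratio was 4.37, with a 95% interval of counting error of 3.74 to 5.13. The variant symbols together had 2931 and 2296 tags, or 1272 and 1097 CPM, a ratio of 0.862 (0.816 to 0.911). Without H1FX-AS1 the ratio of the variants was 0.858 (0.812 to 0.906). These sums are descriptions and carry no test, and the intervals cover counting error between 2 libraries only, with no spread between replicates to set them against. In a bulk library, more cells in one state and more RNA per cell cannot be told apart.

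**Figure D1:**
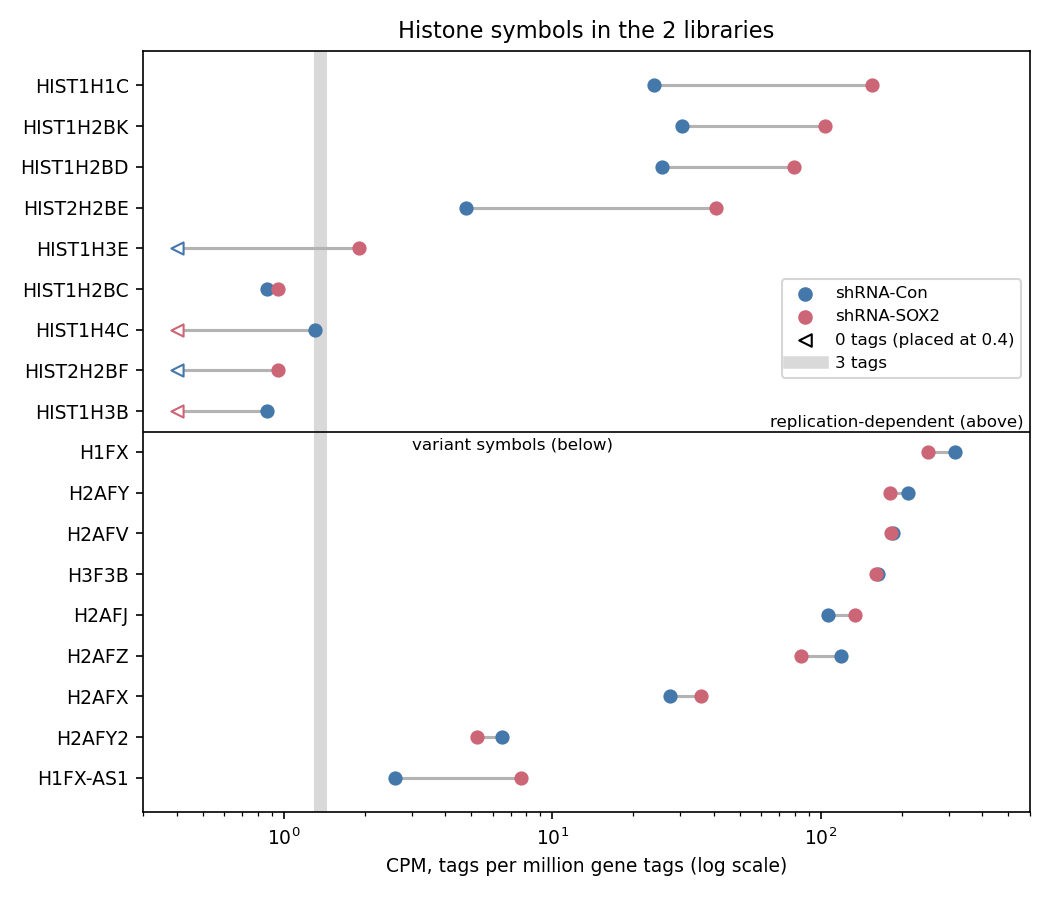
CPM (tags scaled to 1000000 gene tags, log scale) of 18 of the 19 histone symbols, with 1 point for each library joined by a line, and open triangles for 0 tags. The 4 most abundant replication-dependent genes sit to the right in the shRNA-SOX2-labelled library, while H1FX sits to the left, and the grey band marks 3 tags (1.30 CPM in shRNA-Con and 1.43 CPM in the shRNA-SOX2-labelled library).

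For each gene, its tags and all other gene tags of the libraries entered Fisher's exact test, taken two-sided. The p-values were adjusted after Benjamini and Hochberg over all 13137 genes, and genes with an adjusted p below 0.001 are referred to as called. The test compares these libraries and not the conditions. Of the 9 replication-dependent genes, 4 were higher in the shRNA-SOX2-labelled library, 0 were lower and 5 did not pass, while 9.53% of all genes were higher. Of the 10 variant symbols, 0 were higher, 2 were lower, H1FX among them, and 8 did not pass, beside 12.2% of all genes that were lower. In either direction, 6 of the 19 passed, beside 21.7% of all genes. No gene with fewer than 12 tags in all passed, so the 5 replication-dependent genes with 2 to 4 tags in all could not have passed. Medians were taken over genes reaching 20 tags when the libraries were added. The median log2 fold change was 2.24 over 4 replication-dependent genes (range 1.64 to 3.09), −0.12 over the 10 variant symbols and −0.10 over the 10045 genes of the table at that depth.

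**Figure D2:**
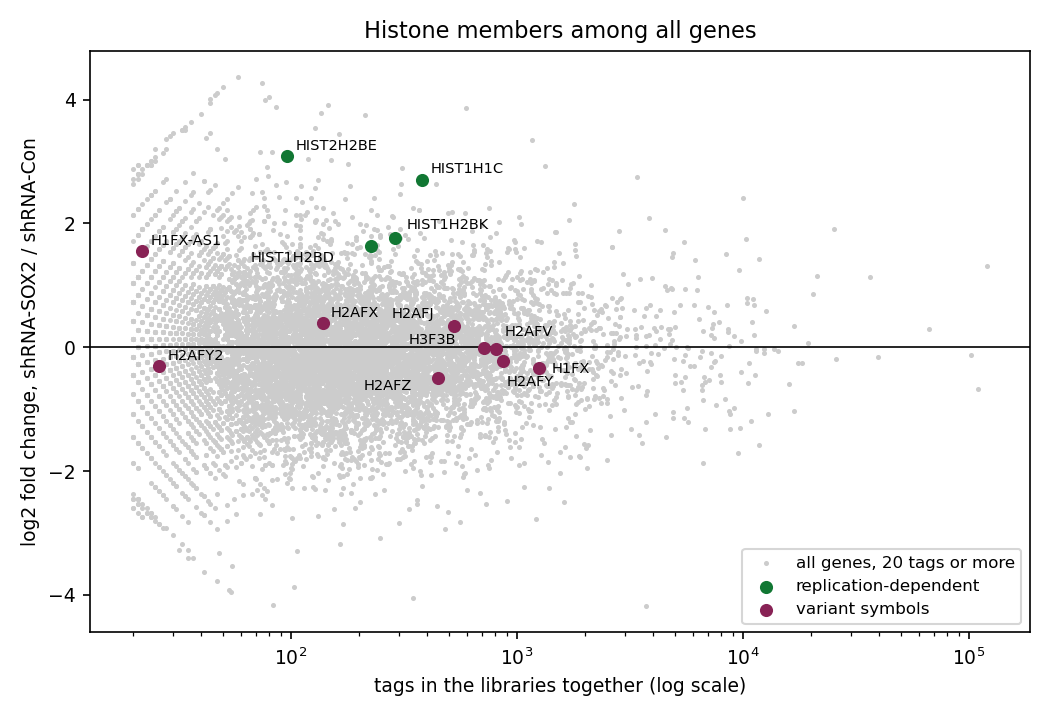
Log2 fold change of the shRNA-SOX2-labelled library over shRNA-Con against tags in both libraries together (log scale), with each grey point 1 of the 10045 genes with at least 20 tags. The 4 replication-dependent genes lie between 1.64 and 3.09 and H1FX-AS1 at 1.55, above the other variant symbols marked.

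HIST1H1C (Entrez Gene 3006, now H1-2, GRCh38 chr6:26055787-26056428, minus strand), which encodes the linker histone H1.2, had 55 tags in shRNA-Con against 326 in the shRNA-SOX2-labelled library. It was the most abundant replication-dependent member of the latter library, at 156 CPM against 23.9 CPM in shRNA-Con. The ratio was 6.52 (4.89 to 8.85) and the log2 fold change 2.71 (adjusted p = 3.95e-52, Fisher's exact test), and 67 of the 10045 genes with at least 20 tags had a log2 fold change as high or higher.

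The linker histone gene H1FX (Entrez Gene 8971, now H1-10, chr3:129314771-129316277), which encodes the variant H1X, went the other way, with 730 and 523 tags. Its ratio was 0.788 (0.703 to 0.883) and its log2 fold change −0.34 (adjusted p = 0.000173, Fisher's exact test). This call was lost with TMM factors (adjusted p = 0.00438) and with the median ratio (adjusted p = 0.00401). H1FX-AS1, whose locus on the opposite strand overlaps H1FX (chr3:129315392-129326225), had 6 and 16 tags (log2 fold change 1.55, adjusted p = 0.0519). Whether counting used strand is not given in the sources used here, so tags from the stretch where the loci overlap may not be told apart.

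Among the tags of the histone genes taken by symbol, antisense RNA left out, replication-dependent genes accounted for 202 of 3127 tags (6.46%, 5.62 to 7.38) in shRNA-Con. In the shRNA-SOX2-labelled library they accounted for 803 of 3083 tags (26.0%, 24.5 to 27.6).

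**Figure D3:**
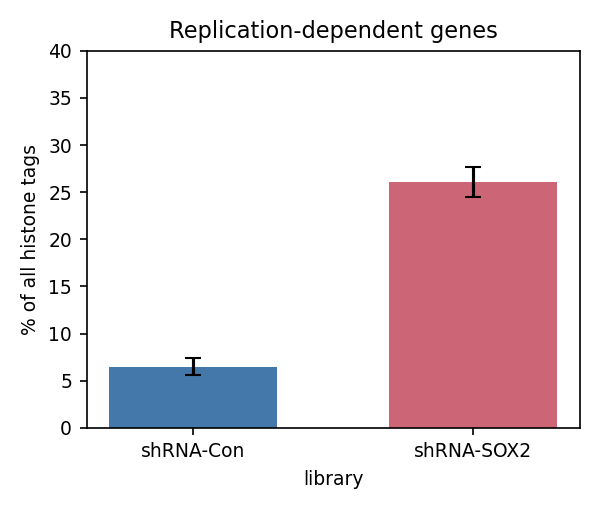
Share of replication-dependent genes among the tags of the histone genes taken by symbol, antisense RNA left out, in percent. There is 1 bar for each library, with 95% Clopper-Pearson intervals of counting error as error bars. The share is higher in the shRNA-SOX2-labelled library, 26.0% against 6.46%.

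Most of the other replication-dependent tags came from H2B genes. HIST2H2BE (Entrez Gene 8349, now H2BC21, chr1:149884459-149886652), which encodes an H2B protein and whose long transcript end is printed above, had 11 tags in shRNA-Con against 85 in the shRNA-SOX2-labelled library. Its ratio of 8.50 (4.52 to 17.7) was the highest among the members, with a log2 fold change of 3.09 (Fisher's exact test, adjusted p = 8.12e-16), and 35 of the 10045 genes reached that value. It is also the called member that rests on the fewest tags.

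HIST1H2BK (Entrez Gene 85236, now H2BC12, chr6:27146418-27146798) had 70 and 217 tags, a ratio of 3.41 (2.59 to 4.53) and a log2 fold change of 1.77 (Fisher's exact test, adjusted p = 1.32e-20). HIST1H2BD (Entrez Gene 3017, now H2BC5, chr6:26158146-26171349) had 59 and 167 tags, a ratio of 3.11 (2.30 to 4.27) and a log2 fold change of 1.64 (Fisher's exact test, adjusted p = 2.63e-14). The intervals of HIST1H2BK and HIST1H2BD overlapped almost fully, and that of HIST1H1C lay above both. The 5 listed H2B genes summed to 142 and 473 tags, a ratio of 3.67 (3.03 to 4.45).

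H2B genes are near-identical in their coding sequence, and tags could be split among them. Of the 21-base stretches of the annotated transcripts, 91.7% of those of HIST1H2BK also occurred in a transcript of another gene. The share was 27.7% for HIST1H2BD, 15.3% for HIST2H2BE and 5.31% for HIST1H1C. The HIST1H2BK model holds coding sequence only, so its share says nothing of the region after the stop codon, but the assignment of its tags among H2B genes is uncertain.

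The remaining replication-dependent genes were near the limit of detection. HIST1H2BC, an H2B gene, had 2 tags in each library. HIST1H3E, an H3 gene, had 0 shRNA-Con tags and 4 in the shRNA-SOX2-labelled library (adjusted p = 0.114), and HIST2H2BF, an H2B gene, had 0 and 2. HIST1H4C, an H4 gene, had 3 and 0 (adjusted p = 0.381), and HIST1H3B, an H3 gene, had 2 and 0. A count of 0 does not show that a message was absent, and no difference was detectable for these genes at this depth. No H2A gene of the replication-dependent kind was listed.

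**Figure D4:**
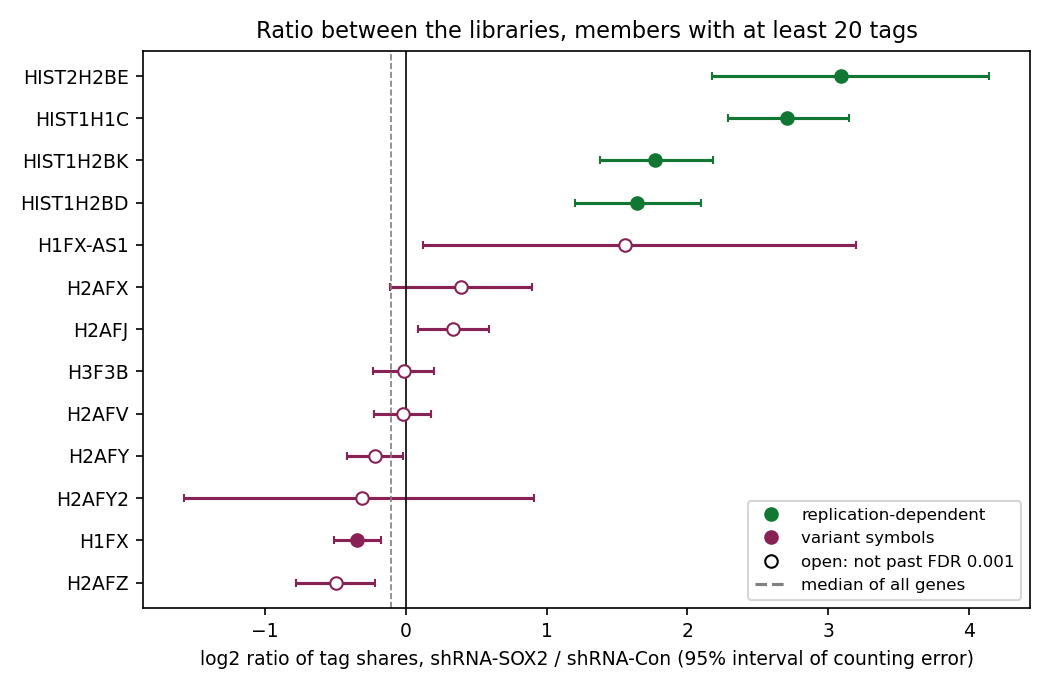
Log2 ratio of tag shares between the shRNA-SOX2-labelled library and shRNA-Con for 13 members with at least 20 tags, with 95% intervals of counting error, filled where the gene passed the threshold of 0.001. The intervals of the 4 replication-dependent genes lie wholly above 0, and so do those of H1FX-AS1 and H2AFJ, which did not pass. The intervals of H1FX, H2AFZ and H2AFY lie wholly below 0, and only H1FX among them passed (median of all genes, dashed, at −0.10).

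Among the variants of core histones, 0 of 7 passed, beside 21.7% of all genes. Their sum was 1884 tags in shRNA-Con against 1642 in the shRNA-SOX2-labelled library, a ratio of 0.959 (0.897 to 1.03). H2AFZ (now H2AZ1), which encodes an H2A.Z placed at promoters, had 273 and 176 tags, a ratio of 0.709 (0.584 to 0.861) and an adjusted p of 0.00166 in Fisher's exact test. It passed when the libraries were scaled by clean tags (log2 fold change −0.61, adjusted p = 6.16e-05). H2AFV (now H2AZ2), the gene of the sister H2A.Z protein, had 427 and 382 tags, a ratio of 0.984 (0.855 to 1.13), and its sign turned with TMM factors (log2 fold change 0.05).

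H2AFJ (now H2AJ), which encodes the H2A variant H2A.J, had 245 and 281 tags, a ratio of 1.26 (1.06 to 1.50, adjusted p = 0.0235 in Fisher's exact test). H2AFX (now H2AX), whose protein is phosphorylated at DNA breaks, had 63 and 75 tags, a ratio of 1.31 (0.925 to 1.86, adjusted p = 0.231). It is the variant whose annotated transcripts match the stem-loop pattern, and adding its tags to the replication-dependent sum gave a ratio of 3.65. H2AFY (now MACROH2A1), which encodes macroH2A, a variant with a large added domain found on silent chromatin, had 486 and 380 tags, a ratio of 0.860 (0.750 to 0.986, adjusted p = 0.0731). Its relative H2AFY2 had 15 and 11 tags, a ratio of 0.807 (0.335 to 1.88).

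H3F3B (now H3-3B), 1 of the genes of H3.3, the H3 variant deposited outside replication, had 375 and 337 tags, a ratio of 0.989 (0.851 to 1.15), and its sign turned with TMM factors (log2 fold change 0.06). CENPA, the centromeric H3 variant, has no symbol of the chosen kinds and was read beside them. It had 111 and 41 tags, a ratio of 0.406 (0.277 to 0.586) and a log2 fold change of −1.30 (Fisher's exact test, adjusted p = 1.79e-06), while HJURP, the chaperone that carries CENPA, had 162 and 163 tags.

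With 1 library a condition, biological spread could only be assumed. When edgeR's exact test was given a biological coefficient of variation of 0.2 as an assumption, HIST1H1C (adjusted p = 6.16e-06) and HIST2H2BE (adjusted p = 5.29e-05) remained called, beside 0.495% of all genes that were higher and 0.86% called in either direction. HIST1H2BK (adjusted p = 0.00626) and HIST1H2BD (adjusted p = 0.0162) did not pass under that assumption. Nor did CENPA (adjusted p = 0.094). With 0.4, none of the 13137 genes passed in that test, and 627 had an unadjusted p under 0.05.

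A list of genes that process or otherwise regulate replication-dependent histone messages was read next. It holds processing factors and also regulators of transcription, such as NPAT and HINFP. Of its 15 genes, 13 had tags, 0 were higher and 1 was lower (7.69%, beside 12.2% of all genes). The gene that fell was SLBP, the stem-loop binding protein, with 173 shRNA-Con tags and 79 in the shRNA-SOX2-labelled library (log2 fold change −0.99, adjusted p = 1.49e-06, Fisher's exact test). With the assumed coefficient of variation of 0.2 its adjusted p was 0.209. NPAT, a transcriptional coactivator of the replication-dependent genes, had 26 and 23 tags (log2 fold change −0.04, adjusted p = 1). CPSF3, the endonuclease that cuts these messages after the stem-loop, had 152 and 84 tags and missed the threshold (adjusted p = 0.00113). The median log2 fold change over the 12 genes with at least 20 tags was −0.16.

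Of 29 histone chaperones and remodelling factors, all listed, 1 was higher (3.45%) and 3 were lower (10.3%). SUPT6H, a chaperone that travels with RNA polymerase II, rose from 197 to 275 tags (log2 fold change 0.62, adjusted p = 2.46e-05). SET, an acidic chaperone, fell from 1899 to 973 (log2 fold change −0.83), RUVBL1, an ATPase of remodelling complexes, fell from 198 to 105 (log2 fold change −0.78), and NAP1L1, a chaperone of H2A and H2B, fell from 1028 to 782 (log2 fold change −0.26, adjusted p = 0.000847). NASP, a linker and H3–H4 chaperone, had 176 and 142 tags (adjusted p = 0.452). These shares of called genes were below those of all genes. In edgeR's exact test with the assumed coefficient of variation of 0.2, the lowest adjusted p on the list was 0.255, for SET.

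Some markers of S phase were higher in the shRNA-SOX2-labelled library, and most did not pass the threshold. Of 30 S phase genes, 7 were higher in the shRNA-SOX2-labelled library (23.3%, beside 9.53% of all genes), 1 was lower and 22 did not pass. The sum over the list was 2627 and 3132 tags, and the median log2 fold change over the 29 genes with at least 20 tags was 0.19. PCNA, the sliding clamp of the replication fork, had 243 and 355 tags (log2 fold change 0.68, adjusted p = 8.47e-08, Fisher's exact test). FEN1, the flap endonuclease of lagging-strand synthesis, had 82 and 184 tags (log2 fold change 1.30). RRM1, TYMS, MCM2 and MCM4 were also higher. RFC4, a subunit of the clamp loader, fell from 81 to 34 tags (log2 fold change −1.11). In edgeR's exact test with the assumed coefficient of variation of 0.2, the lowest adjusted p on the list was 0.0644, for FEN1, above the threshold. The part of S phase in the values of the replication-dependent genes was not tested.

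**Figure D5:**
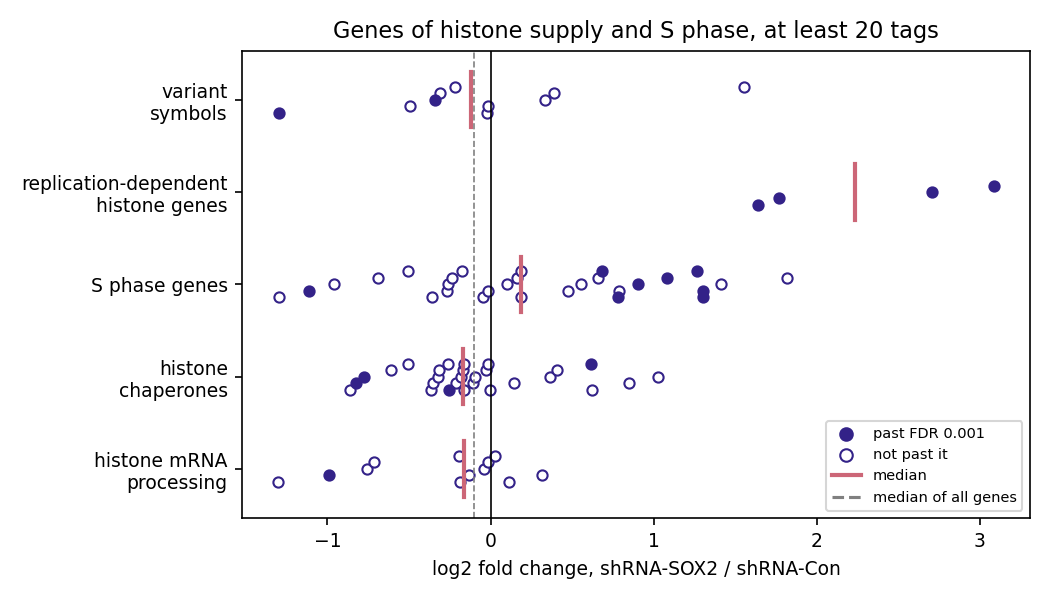
Log2 fold change of the shRNA-SOX2-labelled library over shRNA-Con for genes with at least 20 tags, each point 1 gene, filled where it passed the threshold of 0.001. Red bars are the medians, at −0.16 for histone mRNA processing, −0.17 for chaperones, 0.19 for S phase genes, 2.24 for replication-dependent histone genes and −0.12 for variant symbols. The list named histone mRNA processing also holds regulators of transcription.

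RNAs that are made without a poly(A) tail were also read in these oligo(dT) libraries, since a stem-loop message is of that kind. Of 28 such RNAs listed, 1 was higher (3.57%, beside 9.53% of all genes), 1 was lower (3.57%, beside 12.2%) and 26 did not pass. Of the 28, 22 had fewer than 12 tags in all and could not have passed. SNAR-E, a small RNA made by RNA polymerase III from a family of near-identical copies, had 42 tags in shRNA-Con against 554 in the shRNA-SOX2-labelled library (log2 fold change 3.86). With SNAR-E left out, the 27 others summed to 185 and 101 tags, a ratio of 0.601, and SNORA76, a small nucleolar RNA, was the gene that fell (37 and 6 tags, log2 fold change −2.49). Tags of RNAs without a tail thus differed in opposite directions for SNAR-E and for the sum of the others, and the part of such RNA in the values of the replication-dependent genes was not tested.

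The promoters of the 4 replication-dependent genes that were higher are shown because they carry the elements by which histone genes are usually described. The 120 bases before the transcription start are printed in the direction of transcription from RefSeq on GRCh38.p14, with the TATA box TATAAA, the box CCAAT and the octamer ATTTGCAT in capitals on either strand. They lie at chr6:26056471-26056590 for HIST1H1C, chr6:27146859-27146978 for HIST1H2BK and chr1:149886683-149886802 for HIST2H2BE on the minus strand, and at chr6:26158001-26158120 for HIST1H2BD on the plus strand.
HIST1H1C: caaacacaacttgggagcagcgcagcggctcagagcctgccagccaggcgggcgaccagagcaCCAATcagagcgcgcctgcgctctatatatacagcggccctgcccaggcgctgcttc
HIST2H2BE: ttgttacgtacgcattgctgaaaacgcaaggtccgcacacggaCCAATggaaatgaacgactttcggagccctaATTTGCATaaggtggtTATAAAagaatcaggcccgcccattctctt
HIST1H2BK: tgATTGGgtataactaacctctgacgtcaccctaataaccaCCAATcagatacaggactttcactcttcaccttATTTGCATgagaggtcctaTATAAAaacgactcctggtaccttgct
HIST1H2BD: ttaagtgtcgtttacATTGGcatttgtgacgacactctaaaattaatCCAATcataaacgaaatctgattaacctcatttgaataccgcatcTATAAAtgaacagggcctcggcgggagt

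In the full windows, from 250 bases before to 50 bases after the start and on both strands, CCAAT was found in all 4 genes, beside 34.6% of the 35116 windows of the reference. A gene was counted if any of its windows matched, while the percentages count single windows. TATAAA was found in 3 of the 4, HIST1H1C excepted, beside 11.5%. ATTTGCAT was found in HIST2H2BE and HIST1H2BK, beside 1.77%. The SOX-type motifs CATTGTT and CTTTGTT, present in 3.33% and 5.2% of windows, were found in 0 of the 4. They were also found in 0 of the other members with a promoter entry, variants included. For motifs this rare, so few windows cannot show a lack of them. Among the 8 replication-dependent members with a promoter entry, 8 held CCAAT, 6 held TATAAA and 4 held ATTTGCAT, and of 8 variants with an entry 6, 4 and 1 did. Matches were counted anywhere in the window. The only TATAAA of HIST1H2BC lay at −220 and that of HIST1H3E at −157 from the start. A match of letters is a description of the window and not a bound site.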

How the data were processed

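Per the file headers and the paper's methods, the deposited tag counts are raw tags per Entrez Gene from oligo(dT)-bound mRNA, with no normalization by the authors. The authors' TPM is that count scaled by all clean tags, and it served here only to recover clean tags. The submitters' processing notes name hg19, and the aligner is not given in the sources used here. The columns named SC and S1 were read as shRNA-Con and shRNA-SOX2 from the sample titles. The authors' log2 ratios, p-values and FDR were not used. The smallest listed count above 0 was 2.

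Fold changes divide by gene tags (counts under 3 set to 3, no fold with both at or under 3). Fisher's exact test and Clopper-Pearson intervals (95%) used scipy 1.17.1. Scaling factors, and tests that assume a spread, used edgeR 4.0.16 and DESeq2 1.42.0. Fisher's exact test was tried on simulated counts that held counting error only, and the other steps were not simulated. Members and gene lists were chosen with earlier results of these data known. Members past 0.001 or with at least 20 tags were named, and from the lists the extremes past 0.001 plus SLBP, NPAT, PCNA and CENPA, except 1 member and 1 S phase gene, which count in the totals and are not reported here by name. HIST1H1C and the other symbols were matched by name to GENCODE 29. The low-count members, markers, CPSF3, HJURP, NASP and the other list genes named were chosen after their values were seen. Alternatives were TMM, the median ratio, clean tags, minima of 10 and 100 tags, an FDR of 0.05, a size of 1 or more for the log2 fold change, an added count of 0.5 and assumed coefficients of variation of 0.1, 0.2 and 0.4.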

Additional observations from a re-analysis of the deposited data

How the results depend on the processing

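No paired analysis was possible because there is 1 library on each side, and no library could be left out for the same reason. The number of replication-dependent genes called was 4, and became 2 and 0 with an assumed coefficient of variation of 0.2 and 0.4. At 0.4, 0 genes of the table passed in edgeR's exact test, while 3 members (HIST1H1C, HIST1H2BK and HIST2H2BE) and 627 genes had an unadjusted p under 0.05. The number of variants called was 2. It became 1 after TMM scaling, by the median ratio, with an assumed 0.1 or a log2 fold change whose size is 1 or more. It became 3 by clean tags, 0 with 0.2 and 0.4, and 4 at an FDR of 0.05. Single histone genes called were 6, and became 5 after TMM scaling and by the median ratio, 7 by clean tags and 2 with 0.2. The replication-dependent ratio of 4.37 became 3.57 without HIST1H1C and 3.65 with H2AFX added, and the variant ratio of 0.862 became 0.797 by clean tags. The replication-dependent median of 2.24 became 1.77 at 100 tags or more, 1.77 at any depth (5 genes, as the other 4 have no fold), 1.77 with H2AFX added and 2.71 without HIST1H2BK, the last chosen after seeing the data. H2AFV reversed to 0.050 after TMM scaling and 0.048 by the median ratio, and H3F3B to 0.057 and 0.054. Of 70 recomputed values of 14 single genes, 59 kept direction and side of the threshold, 6 lost a call, 1 gained a call (H2AFZ by clean tags) and 4 reversed. Clean tags moved the median of all genes from −0.10 to −0.22. Lower genes made up 56.1% of calls by gene tags, 49.4% after TMM scaling, 49.7% by the median ratio and 66.6% after scaling to clean tags. Genes called in all were 2849, and 1166 and 113 with an assumed 0.1 and 0.2, 4902 at an FDR of 0.05 and 1570 with a log2 fold change whose size is 1 or more. The cause of these changes was not tested.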
